A study of Mus musculus with 6 samples.

Results

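The genes described here encode 9 receptors of the platelet and megakaryocyte surface: Itga2b, Itgb3, Gp1ba, Gp1bb, Gp5, Gp9, Gp6, Clec1b and Ly6g6f. They were chosen by name, and all 9 were found among the 43346 genes of the count table and passed the filter on low counts. RNA was sequenced from femurs of 4-month-old C57BL/6 mice, an inbred laboratory strain. The right femur of the radiated group had received 24 Gy of image-guided radiation in 1 session, at 6.6 Gy per minute, in a 5 mm stretch of the distal metaphysis, the marrow-rich end of the shaft beside the growth plate. The left femur, which got no beam, was the non-radiated control, so each control came from an animal that had been irradiated in the other leg. Both were taken on day 21, ahead of the bone loss that the submitters saw on day 28, and muscle was removed from the bone before RNA extraction, which left 3 libraries in each group.

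Megakaryocytes are the large polyploid cells of the marrow that shed platelets into the blood, and their surface receptors are carried over onto the platelets. The products of Itga2b and Itgb3 join into the integrin that binds fibrinogen and links platelets to each other. Those of Gp1ba, Gp1bb, Gp9 and Gp5 form the complex that catches von Willebrand factor on a damaged vessel wall. Gp6 is the main signalling receptor for collagen, Clec1b (CLEC-2) binds podoplanin, and Ly6g6f belongs to the immunoglobulin superfamily and is encoded in the major histocompatibility complex. Genes of this lineage are known to be switched on by transcription factors of the GATA, ETS and RUNX families and by NF-E2.

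Promoter sequences are shown for the 4 subunits of the von Willebrand factor receptor, among which the smallest fall was seen, and for Ly6g6f, which had the largest. Each is the 250 bases ahead of the gene start in RefSeq's GRCm38.p6 annotation, the assembly that mm10 stands for, printed on the strand of the gene. They are Gp1ba from chr11:70638872-70639121 (plus strand), Gp1bb from chr16:18622404-18622653 (minus strand), Gp9 from chr6:87777820-87778069 (plus strand), Gp5 from chr16:30310782-30311031 (minus strand) and Ly6g6f from chr17:35085596-35085845 (minus strand). Capitals mark the GATA words AGATAA or TGATAA and the ETS words AGGAAG or CGGAAG, searched on both strands.
Gp1ba: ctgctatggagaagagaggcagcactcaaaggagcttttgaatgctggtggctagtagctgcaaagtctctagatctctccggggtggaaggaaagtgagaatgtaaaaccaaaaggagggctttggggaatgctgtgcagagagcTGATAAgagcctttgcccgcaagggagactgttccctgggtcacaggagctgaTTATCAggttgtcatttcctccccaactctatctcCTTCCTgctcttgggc
Gp1bb: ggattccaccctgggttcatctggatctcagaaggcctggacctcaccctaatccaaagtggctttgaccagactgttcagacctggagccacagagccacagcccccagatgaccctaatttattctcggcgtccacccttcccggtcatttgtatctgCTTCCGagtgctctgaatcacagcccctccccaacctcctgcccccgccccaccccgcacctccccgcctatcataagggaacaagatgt
Gp9: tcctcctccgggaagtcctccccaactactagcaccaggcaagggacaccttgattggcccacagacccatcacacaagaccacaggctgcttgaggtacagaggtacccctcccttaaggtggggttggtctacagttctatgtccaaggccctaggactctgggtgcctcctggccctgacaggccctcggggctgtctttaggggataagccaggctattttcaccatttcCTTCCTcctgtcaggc
Gp5: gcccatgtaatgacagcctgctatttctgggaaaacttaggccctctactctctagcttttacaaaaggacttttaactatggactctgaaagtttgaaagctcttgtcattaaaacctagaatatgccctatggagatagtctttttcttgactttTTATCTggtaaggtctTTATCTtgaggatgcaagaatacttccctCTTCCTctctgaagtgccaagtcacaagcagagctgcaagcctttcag
Ly6g6f: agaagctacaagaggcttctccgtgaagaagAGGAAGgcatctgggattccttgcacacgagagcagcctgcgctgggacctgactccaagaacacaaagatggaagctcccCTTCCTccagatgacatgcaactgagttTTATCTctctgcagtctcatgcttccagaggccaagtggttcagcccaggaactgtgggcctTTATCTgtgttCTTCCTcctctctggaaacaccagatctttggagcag
The windows of Gp1ba, Gp5 and Ly6g6f each held 2 GATA words, and those of Gp1bb and Gp9 held none. Of the windows not printed, that of Itga2b (edgeR log2 fold change -1.41) held none. Those of Gp6 (-1.63) and Clec1b (-1.45) held 1 each. Other GATA spellings were not searched. Among them, the Gp1bb window holds TGATAG on its other strand, and those of Gp1ba and Gp5 hold AGATAG. A relation between GATA words and the size of the fall was not tested. Over the 8 receptor genes with a window, 5 held a GATA word, against 16.6% of all 32817 promoter windows of this length. An ETS word was in 6 of the 8, against 39.2% of all windows. The RUNX word TGTGGT was in 1, that of Gp9, against 14% of all windows, and the NF-E2 words TGACTCA and TGAGTCA were in none, against 4.46%. A word match is a description of these letters and not a binding site.

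All 9 receptor transcripts were lower in the radiated femur, 8 of them by at least 2-fold, and in each the highest radiated library lay under the lowest non-radiated library. By edgeR's quasi-likelihood test, all 9 were called lower at a Benjamini-Hochberg adjusted p under 0.05, taken over the 18757 genes that passed the filter. Of those genes 7.80% were called in either direction, 4.56% higher and 3.24% lower. In the same set 0.688% of genes were called lower by at least 2-fold, and 11.5% had radiated values under all non-radiated values. The median log2 fold change of the 9 was -1.41, against 0.00 for all genes tested. These are bulk samples, in which fewer megakaryocytes and less RNA per megakaryocyte cannot be told apart. The members were chosen with earlier results of these data known, so that their direction is no independent evidence.

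**Figure D1:**
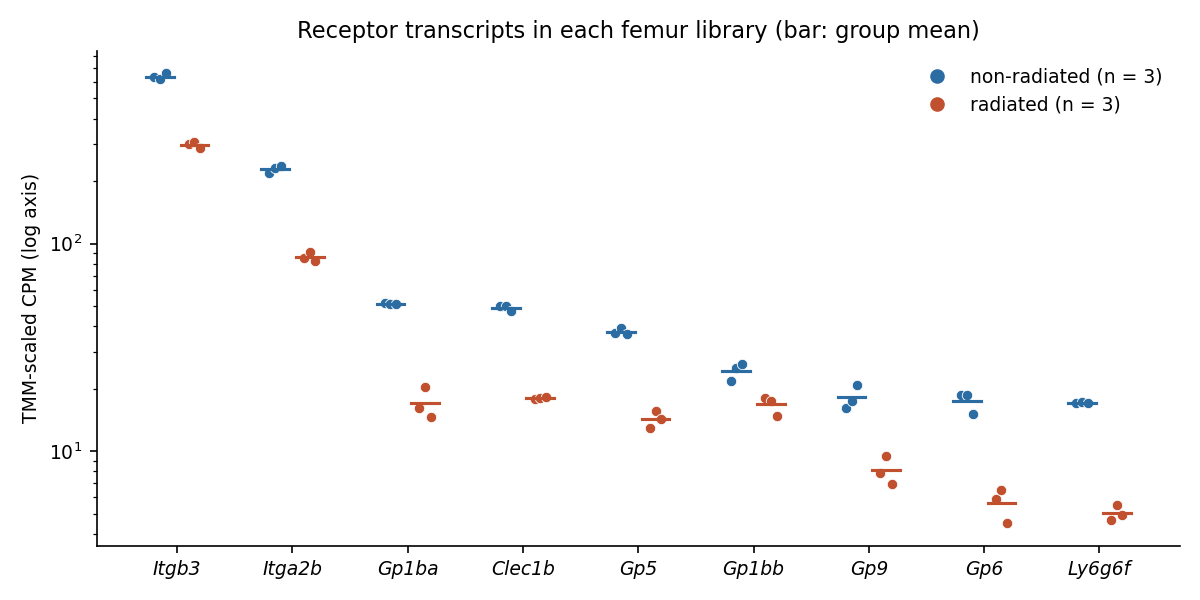
Level of each receptor transcript in CPM (scaled by TMM, log axis) in the 3 non-radiated (blue) and 3 radiated (red) libraries, with a bar at the group mean. In every gene the red points lie below the blue points, with the narrowest gap in Gp1bb.

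The fibrinogen receptor genes were the most abundant. Itga2b (ENSMUSG00000034664, chromosome 11, 102453297 to 102470122), which encodes the subunit made mostly in this lineage, was at 218, 230.4 and 237 CPM (counts relative to library size, scaled by TMM, edgeR's normalization) in non-radiated libraries 1, 2 and 3 and at 84.8, 91.5 and 82.3 CPM in radiated libraries 1, 2 and 3. The 3 libraries of a group lay close together, and the radiated mean was 37.7% of the non-radiated mean (edgeR log2 fold change -1.41, SE 0.06, adjusted p 5.94e-06). Itgb3 (ENSMUSG00000020689, chromosome 11, 104608000 to 104670476), whose product also pairs with the integrin alpha V subunit on osteoclasts and endothelium, was at 631, 619 and 661 CPM in non-radiated and 301, 309 and 288 CPM in radiated libraries. Its edgeR log2 fold change was -1.09, with SE 0.06 and adjusted p 1.43e-05. It kept 47.0% of its non-radiated level, a larger share than Itga2b did.

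Within the von Willebrand factor receptor the 4 subunit genes all fell, to between 33.3% and 68.8% of the non-radiated mean. Gp1ba (ENSMUSG00000050675, chromosome 11, 70639122 to 70642036), which encodes the ligand-binding chain, was at 51.0 to 51.4 CPM in the non-radiated libraries and at 16.2, 20.3 and 14.6 CPM in radiated libraries 1, 2 and 3, edgeR log2 fold change -1.58 with SE 0.11 and adjusted p 4.95e-05. Gp5 (ENSMUSG00000047953, chromosome 16, 30307686 to 30310779), the chain that thrombin cleaves, was at 37.1, 39.2 and 36.7 CPM against 13, 15.6 and 14.2 CPM, edgeR log2 fold change -1.40 with SE 0.08 and adjusted p 1.68e-05. Gp9 (ENSMUSG00000030054, chromosome 6, 87778136 to 87779762), a small chain that the complex needs to reach the surface, was at 16.2, 17.5 and 20.9 CPM against 7.85, 9.48 and 6.99 CPM, edgeR log2 fold change -1.17 with SE 0.14 and adjusted p 0.00117. The 3 genes kept 33.3%, 37.9% and 44.5% of their non-radiated means, and in each the groups were apart.

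Gp1bb (ENSMUSG00000050761, chromosome 16, 18620319 to 18622403), the chain linked to the ligand-binding chain by a disulfide bond, had the smallest fall. Its values were 21.7, 25.2 and 26.4 CPM in non-radiated libraries 1, 2 and 3 and 18.1, 17.5 and 14.8 CPM in radiated libraries 1, 2 and 3. The lowest non-radiated library lay closer to the highest radiated one than in any other receptor gene, and the radiated mean was 68.8% of the non-radiated mean. In edgeR it had a log2 fold change of -0.54 with SE 0.10 (adjusted p 0.0139), and with the scaling set by library totals alone it was -0.34 and no longer called (adjusted p 0.589).

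The Gp1bb row shares 593 bases of its span with Sept5, a septin gene on the same strand, in the count table. In GENCODE M21 a longer Sept5 covers 91.1% of the 2087 exonic bases of Gp1bb, so reads of Gp1bb and of long Sept5 transcripts can be hard to assign. Sept5 (chromosome 16, 18621811 to 18629938) was at 43.1, 47.6 and 49.3 CPM in non-radiated and 43.4, 43.4 and 37.4 CPM in radiated libraries, with overlap between the groups (edgeR log2 fold change -0.17, adjusted p 0.257). There were 0.503 to 0.535 Gp1bb counts per Sept5 count in the non-radiated libraries and 0.395 to 0.417 in the radiated libraries. The part of Sept5 reads in the Gp1bb values was not tested. That limit also holds for the ranks and ratios of Gp1bb given below.

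The collagen and podoplanin receptors also fell. Gp6 (ENSMUSG00000078810, chromosome 7, 4368713 to 4397744) was at 18.6, 18.6 and 15.1 CPM in non-radiated libraries and 5.86, 6.50 and 4.504 CPM in radiated libraries, edgeR log2 fold change -1.63 with SE 0.15 and adjusted p 0.000274. Clec1b (ENSMUSG00000030159, chromosome 6, 129397297 to 129409335) was at 50.1, 50.1 and 47.2 CPM against 17.8, 18.0 and 18.3 CPM, edgeR log2 fold change -1.45 with SE 0.06 and adjusted p 5.94e-06. The radiated libraries of Clec1b were the closest together of the 9 genes, while those of Gp6 ranged more widely. Ly6g6f (ENSMUSG00000034923, chromosome 17, 35080480 to 35085610) was at 17.0, 17.2 and 17.1 CPM in non-radiated and 4.65, 5.51 and 4.95 CPM in radiated libraries. It kept 29.4% of its non-radiated level, the lowest share among the 9 (edgeR log2 fold change -1.76, SE 0.10, adjusted p 1.43e-05).

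The end of Clec1b overlaps the start of Clec9a, a lectin gene of dendritic cells on the same strand, by 474 bases of the span and by 3.61% of the exonic bases of Clec1b in GENCODE M21. Clec9a (chromosome 6, 129408862 to 129424764) was called lower too, at 14.9, 16.0 and 16.5 CPM in non-radiated and 7.66, 8.11 and 8.47 CPM in radiated libraries (edgeR log2 fold change -0.97, SE 0.09, adjusted p 0.000307). There were 2.86 to 3.36 Clec1b counts per Clec9a count in the non-radiated libraries and 2.16 to 2.32 in the radiated libraries. Whether Clec1b reads entered the Clec9a row was not tested. Inside Itga2b lies the row Gm23563, at 11 to 48 counts per library, and inside Gp6 lie the rows Gm25349 and Gm24752, at 0 to 4 counts.

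**Figure D2:**
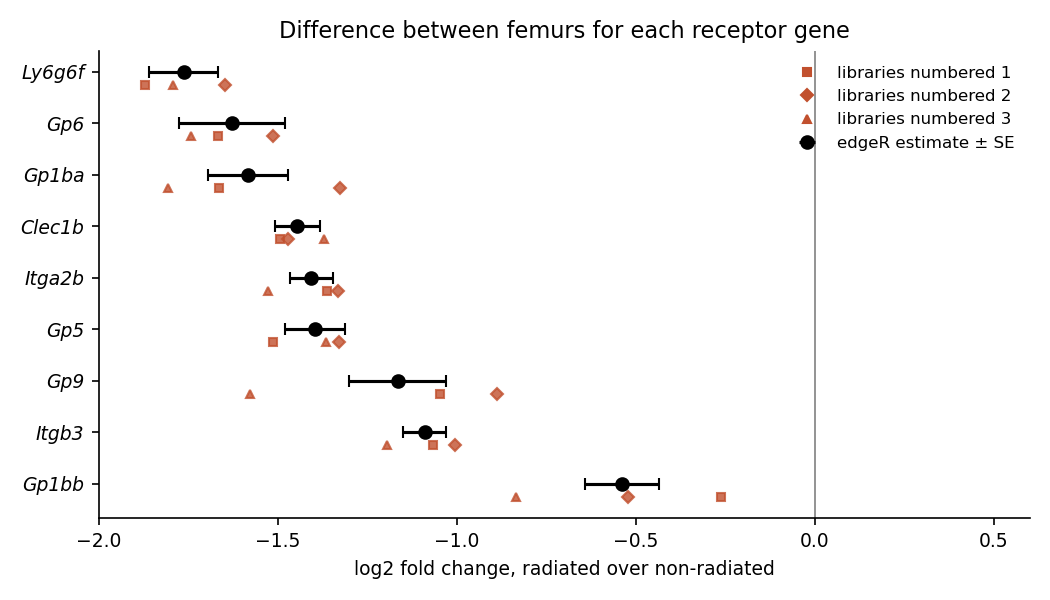
Log2 fold change of each receptor gene, radiated over non-radiated: black points give the edgeR estimate with its standard error, and red symbols the difference between the libraries that carry the same number. All symbols are below 0, from -1.87 for Ly6g6f in the libraries numbered 1 to -0.26 for Gp1bb in the same libraries.

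The replicate numbers were taken to pair the libraries. Since the groups did not overlap in any of the 9 genes, each gene had to be lower in the radiated library of all 3 pairs. For Itga2b the within-number differences were -1.36, -1.33 and -1.53 on the log2 scale. For Gp9 they were -1.05, -0.89 and -1.58, and for Gp1bb -0.26, -0.52 and -0.83. The spread between pairs was thus widest for Gp9 and Gp1bb. With the replicate number as a block all 9 genes stayed called lower, against 3.39% of all genes, and the adjusted p of Gp1bb was 0.0195.

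Levels of different genes were set side by side as CPM per kilobase of the length in the table. In the non-radiated femur Itgb3 was highest at 108 ± 3.62 and Itga2b next at 41.9 ± 1.75 (mean ± SD, n = 3, in each case here). Gp9 followed at 22.4 ± 2.96, Gp1ba at 18.9 ± 0.0871, Gp5 at 17.2 ± 0.627, Gp6 at 15.1 ± 1.76, Ly6g6f at 15.02 ± 0.107, Gp1bb at 12.975 ± 1.30 and Clec1b at 9.63 ± 0.325. In this order Gp6 and Ly6g6f overlapped between libraries, and the other neighbours did not. In the radiated femur the order ran Itgb3 at 50.7 ± 1.73, Itga2b at 15.8 ± 0.875, Gp9 at 9.99 ± 1.56, Gp1bb at 8.93 ± 0.935, Gp5 at 6.51 ± 0.597, Gp1ba at 6.28 ± 1.08, Gp6 at 4.88 ± 0.884, Ly6g6f at 4.41 ± 0.381 and Clec1b at 3.53 ± 0.0475. Gp1bb thus moved from rank 8 to rank 4, where its libraries overlapped those of Gp9, and Gp5, Gp1ba and Gp6 each overlapped the next in order.

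Ratios inside a library do not depend on the scaling between libraries, so the count of each receptor gene was divided by that of Itga2b. The log2 ratio of Gp1bb was -3.23 ± 0.0883 in the non-radiated and -2.36 ± 0.124 in the radiated libraries, a difference of 0.87 (SE 0.09) with no overlap. That of Itgb3 went from 1.48 ± 0.0528 to 1.80 ± 0.0387, a difference of 0.32 (SE 0.04), also with no overlap. Ly6g6f went the other way, by -0.36 (SE 0.05), again with no overlap. With no overlap, each of these 3 differences had to have the same sign in all 3 pairs. Their two-sided exact permutation p was 0.1, the smallest that 20 labelings allow, and 0.267 after adjustment over the 8 ratios, so that no ratio could pass the threshold in this design.

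For the other 5 genes the 2 groups of ratios overlapped, though that of Gp6 was also lower in all 3 pairs, with differences of -0.30, -0.18 and -0.22. The differences from Itga2b were 0.24 (SE 0.11) for Gp9, -0.23 (SE 0.18) for Gp6, -0.19 (SE 0.10) for Gp1ba, -0.04 (SE 0.08) for Clec1b and 0.01 (SE 0.07) for Gp5, with exact permutation p from 0.2 to 0.8. In CPM per kilobase, the ratio of Itgb3 to Itga2b was 2.58 ± 0.0944 in the non-radiated and 3.21 ± 0.0857 in the radiated libraries (mean ± SD, n = 3). That of Gp1bb to Gp1ba was 0.688 ± 0.0707 and 1.44 ± 0.183. Gp5 per Gp1ba was 0.910 ± 0.0370 and 1.05 ± 0.136, with overlap.

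**Figure D3:**
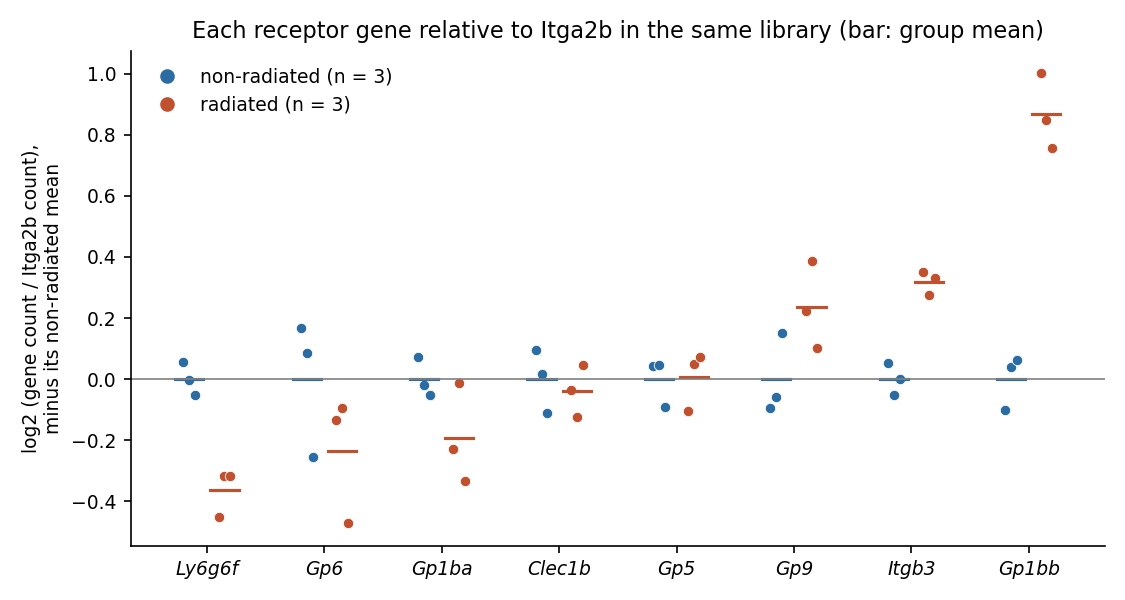
Log2 of the count of each receptor gene over the count of Itga2b in the same library, minus its non-radiated mean, for 3 non-radiated (blue) and 3 radiated (red) libraries with bars at the group means. The groups separate upward in Itgb3 and Gp1bb and downward in Ly6g6f, and overlap in the other 5 genes.

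Of 25 other surface receptors of platelets 17 were called lower and none higher, with a median log2 fold change of -0.57. Library totals alone gave 9 called lower. Treml1, a receptor stored in the alpha granules, fell from 42.3 ± 2.40 to 14.2 ± 1.42 CPM (mean ± SD, n = 3; log2 fold change -1.57). Mpig6b, an inhibitory receptor encoded in the same chromosomal region as Ly6g6f, fell by 1.48 on the log2 scale. F2rl3, a thrombin receptor, and Selp, the P-selectin of activated platelets and endothelium, also fell, with log2 fold changes of -1.29 and -1.28. P2ry12, the ADP receptor that clopidogrel blocks, was at 5.03 to 7.57 CPM and 3.99 to 5.09 CPM, with overlap and no call (edgeR log2 fold change -0.51, SE 0.17, adjusted p 0.115).

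Genes of proteins that pass the receptors' signals inward formed the next list. Of 25 such genes 12 were called lower and none higher, with a median of -0.20. With library totals alone 1 was called lower and the median was -0.021. Lat, the adaptor downstream of Gp6 and Clec1b, fell from 24.5 ± 1.49 to 12.2 ± 0.151 CPM (mean ± SD, n = 3; edgeR log2 fold change -1.0045, adjusted p 7.66e-05), and Rap1b, a small GTPase that activates the fibrinogen receptor, fell by 0.65. Fermt3 (kindlin-3) and Rasgrp2, both needed for that activation, fell, with log2 fold changes of -0.48 and -0.28. Fermt3 was called in 14 of 16 fits and Rasgrp2 in 9. Both calls were lost without non-radiated library 2, and losses for Rasgrp2 included the fits without radiated library 1, 2 or 3. Fcer1g, the signalling chain of Gp6 that other marrow cells also express, was at 97.2 to 103.5 CPM and 86.0 to 101 CPM (edgeR log2 fold change -0.08, adjusted p 0.539, and 0.12 with library totals alone). Syk, the kinase next in line, was not called at a log2 fold change of 0.24 (adjusted p 0.0609 in edgeR), and was called higher in 5 of 16 fits. Its radiated values of 536 to 603 CPM lay above the non-radiated ones of 471 to 498 CPM, as in 14.4% of all genes tested.

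Of 19 transcription factors of the megakaryocyte lineage 4 were called lower and none higher, with a median of -0.18. Meis1, a homeobox factor also active in stem cells, fell from 17.0 ± 1.15 to 10.04 ± 1.25 CPM (mean ± SD, n = 3; edgeR log2 fold change -0.76, adjusted p 0.00316). Gata1, which the erythroid lineage shares, was at 88.3 to 95.9 CPM in non-radiated and 66.3 to 85.9 CPM in radiated libraries. At a log2 fold change of -0.29 it was not called (adjusted p 0.0902 in edgeR), but was with the replicate block (adjusted p 0.0289). The same held for Nfe2 at -0.25 (edgeR adjusted p 0.0549, and 0.0397 with the block). Fli1, Gfi1b and Runx1 had log2 fold changes of -0.21, -0.18 and -0.04, with edgeR adjusted p of 0.0798, 0.425 and 0.695, and the last 2 were positive, at 0.03 and 0.15, with library totals alone. With that scaling the median of all genes was 0.19 and no factor was called. The row AY036118 held 32.9% of the counts of non-radiated library 2.

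Of the 25 other integrin genes 2 were called lower and 2 higher, and the median was 0.00. Itga6, a laminin receptor subunit of platelets and of progenitors, fell from 167 ± 5.79 to 89.1 ± 2.25 CPM (mean ± SD, n = 3; edgeR log2 fold change -0.91, adjusted p 1.51e-05), and Itga2, the collagen-binding subunit of platelets, fell by 0.73. Itga9 and Itga7 were higher by 0.30 and 0.996 on the log2 scale, at adjusted p values in edgeR of 0.0316 and 0.0404. Itga7, an integrin of muscle fibres, lost its call in each fit without a library except that without radiated library 3, and also with the muscle covariate, with limma-voom and with the replicate block (adjusted p 0.0508). Itga9 was called in 9 of 16 fits. The fits that lost its call included that with the muscle covariate and those without each library apart from non-radiated library 3. Itgav, the other partner of Itgb3, was at 128 to 164 CPM and 156 to 181.5 CPM, with overlap (edgeR log2 fold change 0.21, adjusted p 0.246). Itgb1 was at 260.5 to 291.5 CPM and 238 to 241 CPM and was not called (edgeR adjusted p 0.0862).

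Among 12 ligands of these receptors 8 passed the filter, and 3 of the 8 were called lower. The genes of the fibrinogen chains, which the liver makes, and of vitronectin were under it. Vwf, which megakaryocytes and endothelium both express, fell from 341 ± 28.0 to 134 ± 7.17 CPM (mean ± SD, n = 3; edgeR log2 fold change -1.35, adjusted p 1.43e-05), and Thbs1 (thrombospondin) fell by 0.96. The third was Col1a1, a chain of the main bone collagen, at 4079 to 6185 CPM and 2984 to 3767 CPM (edgeR log2 fold change -0.61, adjusted p 0.047), a call made in 8 of 16 fits. Col3a1, another collagen gene of the list, went the other way, at 149 to 250 CPM and 201 to 447 CPM, with overlap. It was not called (edgeR log2 fold change 0.74, adjusted p 0.139), but was called higher in 4 of 16 fits. Pdpn, the ligand of Clec1b, was low, at 1.76 to 2.52 CPM and 1.59 to 2.35 CPM, and the log2 fold change, -0.19 with SE 0.22 (adjusted p 0.692 in edgeR), was within the spread between libraries.

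**Figure D4:**
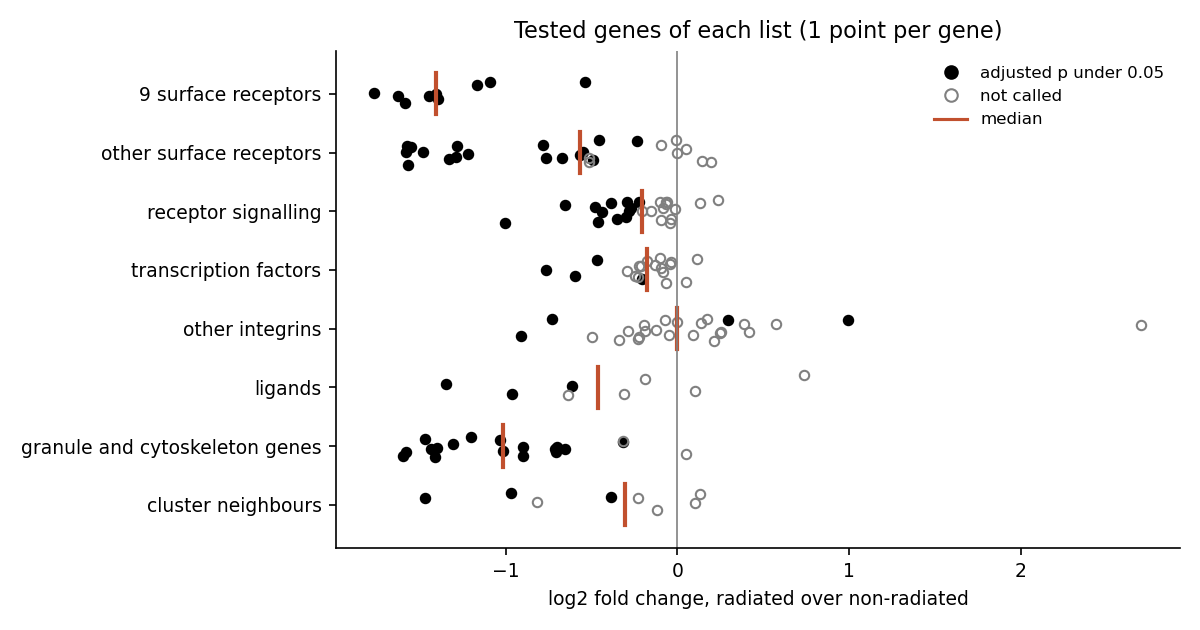
Log2 fold change, radiated over non-radiated, of each tested gene in the 8 lists, 1 point per gene, filled where the edgeR adjusted p was under 0.05, with a red bar at the list median. The 9 receptors have a median of -1.41, the granule and cytoskeleton genes -1.01 and the other surface receptors -0.57, while the other integrins centre on 0.00.

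Of 19 granule and cytoskeleton genes of the lineage that were tested, 17 were called lower and none higher, with a median of -1.01. Library totals alone gave 11 called lower. Pf4 (platelet factor 4) fell from 125 ± 7.29 to 46.8 ± 4.21 CPM, Tubb1, the beta-tubulin of platelets, from 104 ± 2.97 to 37.4 ± 3.16 CPM, and Rab27b, which helps to release granules, from 84.9 ± 6.00 to 28.0 ± 1.18 CPM (mean ± SD, n = 3). In the chromosomal neighbourhoods of Clec1b and Ly6g6f, 8 of 11 genes were tested and 3 called lower, Clec9a, Olr1 and Ly6g6c. Ly6g6c was at 0.134 to 0.548 CPM, and it and Olr1 were called in 7 of 16 fits each. The span of Ly6g6c (chromosome 17, 35065388 to 35070050) overlaps that of Mpig6b (35062693 to 35066184), which was at 22.9 to 25.4 CPM in the non-radiated libraries. Whether Mpig6b reads entered the Ly6g6c row was not tested. Among the plotted lists in which no gene was called higher, 1 surface receptor, 2 signalling genes and 1 ligand were higher at an unadjusted p under 0.05, and DESeq2's Wald test called 1 signalling gene higher.

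Over the 6 libraries, the 5 genes closest to the median profile of the receptors, by root mean square distance in log2 CPM among 15571 genes averaging 1 CPM or more, were Mrvi1, Med12l, Alox12, Cavin2 and Slc6a4. Their distances were 0.0276, 0.0351, 0.0449, 0.0764 and 0.0806. Mrvi1 encodes a substrate of the cGMP-dependent kinase, Alox12 the platelet lipoxygenase, Cavin2 a caveolae protein and Slc6a4 the serotonin transporter. Among the receptors themselves Itga2b lay at a distance of 0.0386 from that median, Gp5 at 0.0443 and Clec1b at 0.0592, and Gp1bb was farthest at 0.624. In the 3 radiated libraries the receptor median was -1.47, -1.32 and -1.43 relative to the non-radiated mean.

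Total gene counts were 34034251 to 48708383 per library. The label of a megakaryocyte group was checked with 8 other markers of that cell, several of them also in the lists above, all called lower, whose summed level was 877 to 971 CPM in non-radiated and 294 to 356 CPM in radiated libraries. Osteoclast markers, of the other cells with Itgb3, summed to 1087 to 1492 CPM and 1245 to 1472 CPM, with 1 of 8 called, higher. Endothelial markers summed to 350 to 373 CPM and 338 to 387 CPM, with 2 of 8 called lower, Sele and Tek. The other 6 were not called by edgeR, but 2 were higher at an unadjusted p under 0.05 and 1 was called higher with the replicate block. Mast cell markers, of cells that can carry Itga2b, summed to 83.4 to 87.6 CPM and 65.2 to 71.6 CPM, with 2 of 4 tested called lower and 1 higher. Stem and progenitor markers summed to 150.004 to 160 CPM and 107 to 115 CPM, with 3 of 8 called lower. Erythroid markers summed to 21379.5 to 24395.4 CPM and 24510.0 to 27869.7 CPM (1 of 9 called, higher), B cell markers to 467 to 527 CPM and 767 to 970.1 CPM (8 of 8 higher), and neutrophil markers to 14142 to 18301 CPM and 11314 to 13224 CPM (none of 8 called by edgeR, 8 lower at an unadjusted p under 0.05, and 3 called lower with the replicate block). No marker was at 0 in all libraries. The part of these cells in the receptor differences was not tested. Skeletal muscle markers, of which edgeR called none of 10 (10 were higher at an unadjusted p under 0.05, and 7 were called higher with the replicate block), summed to 162 to 318 CPM in non-radiated libraries, to 721 and 2235 CPM in radiated libraries 1 and 2 and to 183 CPM in radiated library 3, in which the 9 receptors together were at 449 CPM, against 469 and 493 CPM in the other two and 1062 to 1112 CPM in the non-radiated libraries.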

How the data were processed

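Total RNA of 6 mouse femur samples was made into libraries with a stranded mRNA kit and sequenced. Counts per gene and RPKM values were deposited by the authors in 1 table, per the file headers. The submitters' processing notes name bcl2fastq, STAR 2.5.2b, Subread, featureCounts and the build mm10. The annotation, the filters and the use of strand are not given in the sources used here. The RPKM deposited by the authors was not used for tests, since its library constant is 5.55 to 6.91 times the sum of gene counts. The main test on the counts was edgeR 4.0.16, run in R 4.3.3 (filterByExpr with a minimum count of 10 and total of 15, TMM, glmQLFit and glmQLFTest, the group as the only term), over 18757 genes. CPM are scaled by TMM, so differences are relative to the bulk of genes. An SE is the log2 fold change over the square root of F. The fit was tested on simulated data.

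The other settings tried were scaling by library totals or by the size factors of DESeq2 1.42.0, no filter on low counts, a filter at 1 CPM on average, limma-voom (limma 3.58.1), the Wald test of DESeq2, a replicate block, a skeletal muscle covariate and each library left out. Totals without AY036118 and Gm26917 were added after seeing the data. Nothing in the labels says that libraries of a group are separate animals, so p-values measure the spread between these libraries. Replicates differed by far more than sampling noise (chi-square per degree of freedom 17.8 to 631). Pairs with non-radiated library 2, in which AY036118 held 32.9% of counts, gave 631 and 533, and the other pairs 17.8 to 131. Same-numbered libraries deviated together, with r across genes of 0.159, 0.254 and 0.180 for numbers 1, 2 and 3. Other combinations gave -0.159 to -0.0148. Deviations from a group mean cancel out over its libraries, so these negative values are no separate evidence of pairing. From the same-number values the numbers were taken to pair the libraries. These r are small, and whether a shared animal or shared handling lay behind them was not tested.

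The members and lists were chosen with earlier results of these data known. Genes named were the 9 members, 23 fixed names, the 2 called genes of smallest p per list and direction, genes that overlap a member, and the 5 nearest profiles. Genes that meet this rule but are not named are not reported here. Olr1, Col1a1, Col3a1, Sele and Tek were named after their values were seen. Mpig6b and Cavin2 were matched by gene ID, and the protein-coding row of Clec7a was used. Promoters from RefSeq were found for 8 of the 9 genes, all but Itgb3. The 6 libraries have 3 per group, for which an exact permutation test cannot go below 0.1.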

Additional observations from a re-analysis of the deposited data

How the results depend on the processing

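All 9 receptors were called lower in 15 of 16 fits, and library totals alone left 8, with Gp1bb at -0.34. That scaling, which AY036118 enters, gave a receptor median of -1.21 and medians of -0.39 for other surface receptors, -0.021 for signalling genes, 0.028 for transcription factors, 0.19 for other integrins, -0.81 for granule genes and -0.10 for cluster neighbours. It called lower 9, 1, 0, 1, 11 and 1 of these lists in the same order, and 1 ligand higher, and turned Fcer1g (0.12), Gfi1b (0.028), Runx1 (0.15) and Sept5 (0.024) positive. Totals without AY036118 and Gm26917, chosen after seeing the data, called all 9 receptors, gave 0.028 as the median of the other integrins and called 1 surface receptor and 1 signalling gene higher. DESeq2's Wald test called 9 factors lower, 6 integrins lower and 4 higher and 1 signalling gene higher. No filter gave 7 factors lower, 4 integrins lower and 4 higher, and 1 signalling gene and 1 ligand higher. With limma-voom 1 signalling gene and 1 integrin were higher. The muscle covariate gave 4 integrins lower and 0 higher, 1 cluster neighbour lower and 1 signalling gene higher. The replicate block called 1 ligand higher. It changed no receptor call, and of the named genes it made calls of Gata1, Nfe2 and Gm23563 and ended that of Itga7.

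Without each library in turn all 9 receptors stayed called. The number of genes called was 764 to 1376 against 1463. It was 764 with radiated library 1 left out, and 819 and 905 with non-radiated libraries 2 and 1 left out. Integrins called higher were 0 to 2, with 0 when library 1 or 2 of either group was left out and 1 for non-radiated library 3. Ligands called higher were 0 to 1, with 1 for radiated library 3, and cluster neighbours called lower were 1 to 2, with 1 for non-radiated libraries 1 and 2 and radiated libraries 1 and 3. Medians ran from -0.68 to -0.53 for other surface receptors, -0.043 to 0.042 for other integrins (highest when non-radiated library 3 was left out, and 0.02 when radiated library 3 was), -0.48 to -0.22 for ligands and -1.09 to -0.98 for granule genes. The ligand median was -0.22 and -0.24 when non-radiated library 1 or 3 was left out and -0.26 when radiated library 3 was. The ratio to Itga2b ran from -0.040 to 0.061 for Gp5 (lowest when non-radiated library 3 was left out, and -0.02 and -0.03 for radiated libraries 2 and 3) and from -0.094 to 0.0089 for Clec1b (highest for non-radiated library 1, and 0.0050 for radiated library 2). Where a fit left 2 libraries in a group, the spread was pooled over both groups.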
